A study of Mus musculus with 21 samples.

Results

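CD4 T cells that stayed negative for an Il23r reporter were compared between a culture with IL-12+IL-21 and a culture with IL-1b+IL-6+IL-23, across the genes of a bulk RNA-seq table. The comparison used 5 of the series' 21 libraries, 2 from the IL-12+IL-21 culture and 3 from the IL-1b+IL-6+IL-23 culture, chosen by label. It covered the 8757 of 23415 genes that reached 1 TPM in at least 2 of these libraries. TPM is a gene's share of the transcripts of its library after correction for length. Replicate 3 of IL-12+IL-21 was left out because it held fewer than 5000 genes above 0.

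Cells of both groups began as naive CD4 T cells (CD44 low and CD25 negative, among other markers) sorted from mouse spleen and lymph nodes. The mice were heterozygous (Il23r wt/eGFP) for an allele in which an IRES-eGFP cassette marks the Il23r locus and abolishes receptor function, so every cell compared here had a single working copy of Il23r. Both cultures ran for 5 days on plate-bound anti-CD3 and anti-CD28, with 20 ng/ml each of IL-12 and IL-21 in one. The other received 20 ng/ml of IL-1b, 25 ng/ml of IL-6 and 20 ng/ml of IL-23. After culture, the cells without eGFP fluorescence (GFPneg) were taken from both, and libraries were made by SMART-Seq2, a method that copies whole transcripts of few cells into cDNA. The sources used here give neither the age of the mice nor whether replicates were separate cultures or animals. All p-values therefore reflect the scatter among these libraries alone, which could be purely technical.

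Cytokines present while a naive CD4 T cell is first stimulated steer it toward an effector program. IL-12 signals through STAT4 and induces T-bet, the factor of Th1 cells, which secrete interferon gamma. IL-6, IL-21 and IL-23 signal largely through STAT3 and, with IL-1b, promote Th17 cells, which secrete IL-17A, IL-17F and IL-22. The receptor for IL-23 pairs the Il23r product with IL-12R beta 1, a chain that the IL-12 receptor uses too. IL-21 is itself a product of Th17 cells and of follicular helper T cells.

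The upstream sequences of 6 called genes, chosen by hand and not by size of change, are shown. They are Ifng, Irf1 and Gbp2 on the higher side, and Il17a, Il17f and Ifit1 on the lower. All 6 hold a match to a motif marked below, so they do not stand for the called genes at large. Each run is the 250 bases before the RefSeq start in GRCm38.p6, read 5′ to 3′ on the gene's strand. Capitals mark matches on either strand to TTCNNNGAA (the gamma-activated site, bound by STAT dimers), GAAANNGAAA (the interferon-stimulated response element) or AGGTCA (the half-site of ROR factors).
Ifng, chr10:118440796-118441045, plus strand: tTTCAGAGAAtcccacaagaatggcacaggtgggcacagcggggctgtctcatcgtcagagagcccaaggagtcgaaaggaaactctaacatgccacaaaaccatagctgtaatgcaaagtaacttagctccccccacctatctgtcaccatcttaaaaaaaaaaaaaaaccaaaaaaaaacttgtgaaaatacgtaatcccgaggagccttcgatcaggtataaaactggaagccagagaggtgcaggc
Irf1, chr11:53769764-53770013, plus strand: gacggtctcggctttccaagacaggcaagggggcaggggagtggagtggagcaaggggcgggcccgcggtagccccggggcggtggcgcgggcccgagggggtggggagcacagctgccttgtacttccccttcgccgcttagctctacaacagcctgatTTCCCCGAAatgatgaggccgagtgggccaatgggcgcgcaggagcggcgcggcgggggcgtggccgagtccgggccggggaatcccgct
Gbp2, chr3:142620413-142620662, plus strand: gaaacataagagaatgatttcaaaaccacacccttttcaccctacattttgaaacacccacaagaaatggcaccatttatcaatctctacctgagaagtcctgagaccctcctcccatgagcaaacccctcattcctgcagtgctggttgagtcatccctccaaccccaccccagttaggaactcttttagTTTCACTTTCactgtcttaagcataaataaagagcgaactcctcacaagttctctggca
Ifit1, chr19:34640639-34640888, plus strand: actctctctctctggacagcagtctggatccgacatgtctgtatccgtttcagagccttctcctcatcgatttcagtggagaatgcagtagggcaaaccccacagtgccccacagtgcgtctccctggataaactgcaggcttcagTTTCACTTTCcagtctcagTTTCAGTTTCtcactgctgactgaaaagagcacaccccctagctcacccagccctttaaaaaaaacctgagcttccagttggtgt
Il17a, chr1:20730655-20730904, plus strand: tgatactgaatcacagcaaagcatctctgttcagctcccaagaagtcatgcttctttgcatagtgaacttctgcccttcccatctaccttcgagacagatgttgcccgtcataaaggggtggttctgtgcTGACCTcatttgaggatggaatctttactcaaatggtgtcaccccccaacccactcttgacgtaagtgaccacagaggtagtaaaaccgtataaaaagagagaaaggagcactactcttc
Il17f, chr1:20784271-20784520, minus strand: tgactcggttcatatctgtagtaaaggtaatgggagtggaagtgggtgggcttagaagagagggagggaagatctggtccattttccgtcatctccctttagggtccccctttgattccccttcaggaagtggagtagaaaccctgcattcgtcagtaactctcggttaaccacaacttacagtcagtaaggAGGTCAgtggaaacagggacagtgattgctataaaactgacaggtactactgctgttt

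With the base before the start counted as -1, the gamma-activated site of Irf1 spans -90 to -82 and that of Ifng -249 to -241. Gbp2 holds 1 interferon-stimulated response element at -59 to -50, and Ifit1 holds 2, at -104 to -95 and at -85 to -76. The ROR half-sites begin at -120 in Il17a and at -58 in Il17f. None of these matches overlaps another. Over the 27025 promoters of the table, the gamma-activated site letters occur in 7.18%, the interferon-stimulated response element in 3.04% and the ROR half-site in 13.8%. The ROR half-site was not particular to lower genes. It occurred in 18.6% of promoters found for genes called higher and 14.5% for genes called lower, against 10.9% for genes tested. A match is a run of letters and not a measured binding site.

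The gate and the cell type were checked first. The row for the reporter transcript, which may share reads with Il23r, had 5.29 and 2.04 TPM in IL-12+IL-21 libraries, against 0, 1.53 and 1.74 TPM in IL-1b+IL-6+IL-23 libraries, while the reporter-positive libraries of both cultures had between 17.4 and 35 TPM. All 12 genes of CD4 T cell identity were detected, with summed levels of 2757 to 3323 TPM in IL-12+IL-21 and 2183 to 2722 TPM in IL-1b+IL-6+IL-23. Listed at 0 in all 5 libraries were 5 of 9 B cell markers, among them Cd79a, Pax5 and Blnk. So were 5 of 13 myeloid markers (Lyz2, Csf1r, Itgam, Adgre1, Itgax) and 5 of 9 natural killer markers, among them Ncr1, Klrb1c and Tyrobp. The same held for 6 of 7 gamma-delta markers and 8 of 10 erythroid and neutrophil markers. Markers of these lists that reached 1 TPM in a library were Ighm, Fcer2a, Cd68, Batf3, H2-Ab1, Klre1, Ly6g and Csf3r. The myeloid list summed to 135 to 155 TPM against 43.7 to 47.9 TPM, and without Batf3, a gene that T cells also express, to 17.8 to 20 TPM against 7.72 to 18.1 TPM. The B cell list summed to 12 to 12.3 TPM against 6.89 to 8.59 TPM. For the erythroid and neutrophil list the sums were 13.18 to 14.05 TPM against 11.93 to 14.99 TPM. For the natural killer list they were 0.16 to 0.23 TPM against 0.25 to 2.25 TPM. The CD8 gene Cd8b1 had 5.65 and 8.14 TPM in IL-12+IL-21, against 17.4, 7.81 and 10.4 TPM in IL-1b+IL-6+IL-23. The part of these transcripts in the results below was not tested. Libraries listed 11193 and 11534 genes above 0 in IL-12+IL-21 and between 10384 and 11613 in the other group. TPM keeps no read depth, so the depth is unknown.

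Of the 8757 genes, 198 passed the test, which is 2.26%. Of these, 122 were higher in IL-12+IL-21 (1.39% of genes tested) and 76 lower (0.868%). The test was limma on log2(TPM + 1) with Benjamini-Hochberg adjustment over all genes tested, and an adjusted p under 0.05 passed. A log2 change of 1 on this scale is a 2-fold change, and the scale understates changes of low genes. At an absolute log2 change of at least 2 there were 39 higher and 27 lower genes. The median change of all genes was -0.01. The libraries of the 2 groups did not overlap for any of the 198, against 26.8% of all genes tested.

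The calls leaned on both IL-12+IL-21 libraries. With replicate 1 of that group left out 45 genes passed, and with replicate 2 left out 37, where the remaining library is assumed to vary like the other group. With replicate 1, 2 or 3 of IL-1b+IL-6+IL-23 left out, 197, 159 and 133 passed. All 198 kept their direction in each of the 5 fits that left out 1 library, 27 passed in every one, and 25 in none. These 27 were Ifng, Plac8, Crabp2, Irf8, Ccl4, Il12rb2, Lta, Cd40lg, Ctla2a, Lilrb4a, Samhd1 and Serpinb9 among the higher genes, and Il17f, Il17a, Il22, Il1r2, Lum, Timd2, Lad1, Upp1, Crispld2, Batf, Slc15a3, Pdzk1ip1, Nfkbia, Psma6 and Dbi among the lower. For the other 171, the highest adjusted p always came with an IL-12+IL-21 library left out, and is given below for the genes described. The 25 that passed in none of the 5 fits included Socs2, Ebi3, Idi1, Isg20, Cdkn1a, Cdk1 and Aurkb. Among those that passed in only 1 of the 5 were Il2rb, Ccr7, Ccl5, Rora, Rtp4, Psmb9, Psme1, Tnfrsf18, Egln3, Dcn, Il18r1 and Ccna2. With the poor replicate 3 taken in, 6 genes passed.

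Ifng, which encodes interferon gamma, separated the cultures most among the higher genes. Its level was 231 and 131 TPM in IL-12+IL-21 libraries, against 0, 0 and 0.9 TPM in IL-1b+IL-6+IL-23 libraries. It was thus at or near 0 in all 3 libraries without IL-12, and its log2 change was 7.14 ± 0.38 (SE; adjusted p = 1.49e-05). In bulk samples such as these, fewer cells of a type and less RNA per cell cannot be told apart. Tbx21, which encodes the Th1 factor T-bet, had 32.9 and 70.8 TPM in IL-12+IL-21, against 1.02, 0.36 and 3.38 TPM. Both IL-12+IL-21 values lay far above the highest of the other group, a log2 change of 4.43 ± 0.50 (adjusted p = 0.00202, and 0.0769 without IL-12+IL-21 replicate 2). Il12rb2, the signalling chain of the IL-12 receptor, had 184 and 116 TPM in IL-12+IL-21, against 16.2, 12.9 and 14.7 TPM, and rose by 3.24 ± 0.26 (adjusted p = 0.000247). Its partner chain Il12rb1, shared with the IL-23 receptor, had 31.2 and 22.9 TPM against 23.6, 13.9 and 14.1 TPM and did not pass (adjusted p = 0.450).

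Of 18 Th1 genes listed, 14 were tested, 7 were higher, 2 were lower and the median log2 change was 1.2, against -0.01 for all genes. The higher ones besides those above included Nkg7, a granule membrane protein of cytotoxic cells, Ly6c2, a surface antigen of effector T cells, and Il18r1. The lower ones were Id2 and Ccl5. Stat4, which transmits the IL-12 signal, had 17.6 and 15.9 TPM in IL-12+IL-21 cells, against 13.7, 16.5 and 20.1 TPM in IL-1b+IL-6+IL-23, with a change of 0.02 ± 0.26. Runx3 and Bhlhe40, factors that act with T-bet, differed by 0.34 ± 0.26 and 0.05 ± 0.18 and did not pass either.

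Il17f was the most changed gene of all. It had 1.7 and 0.59 TPM in IL-12+IL-21 libraries, against 1775, 2233 and 1988 TPM in IL-1b+IL-6+IL-23 libraries, a log2 change of -9.91 ± 0.25 (adjusted p = 8.87e-08). The cells sorted as reporter-negative in the IL-1b+IL-6+IL-23 culture thus carried IL-17F transcripts in all 3 libraries, and those of IL-12+IL-21 almost none. Il17a, its neighbour on chromosome 1, had 0.43 and 0.89 TPM in IL-12+IL-21, against 81.6, 89.8 and 142 TPM, a change of -5.96 ± 0.30 (adjusted p = 1.44e-05). In the IL-1b+IL-6+IL-23 cells, Il17f exceeded Il17a per length by 21.8, 24.9 and 14 times in replicates 1, 2 and 3. Il22, a cytokine that acts on epithelia, had 0 and 1.62 TPM in IL-12+IL-21, against 109.7, 96.3 and 80.3 TPM, and fell by 5.88 ± 0.38 on the log2 scale (adjusted p = 6.96e-05). A near copy of Il22, Iltifb, may share its reads.

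Ccr6, the receptor that leads Th17 cells to CCL20, had 5.3 and 4.22 TPM in IL-12+IL-21, against 33.3, 29.2 and 49.9 TPM in the other culture, and fell by 2.71 ± 0.29 (adjusted p = 0.00144, and 0.0571 without IL-12+IL-21 replicate 2). Of 20 Th17 genes, 18 were tested, 0 were higher and 7 were lower (0 and 12 at an unadjusted p under 0.05), with a median of -1.22. The lower ones included Rora and Batf, whose values follow with the transcription factors. Il23r itself had 3.04 and 6.36 TPM in these sorted negative cells of IL-12+IL-21, against 7.33, 6.02 and 7.56 TPM, a change of -0.54 ± 0.33 that did not pass (adjusted p = 0.634). Stat3 had 54.4 and 34.5 TPM against 81.9, 67.7 and 79.8 TPM, and did not pass (adjusted p = 0.175).

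**Figure D1:**
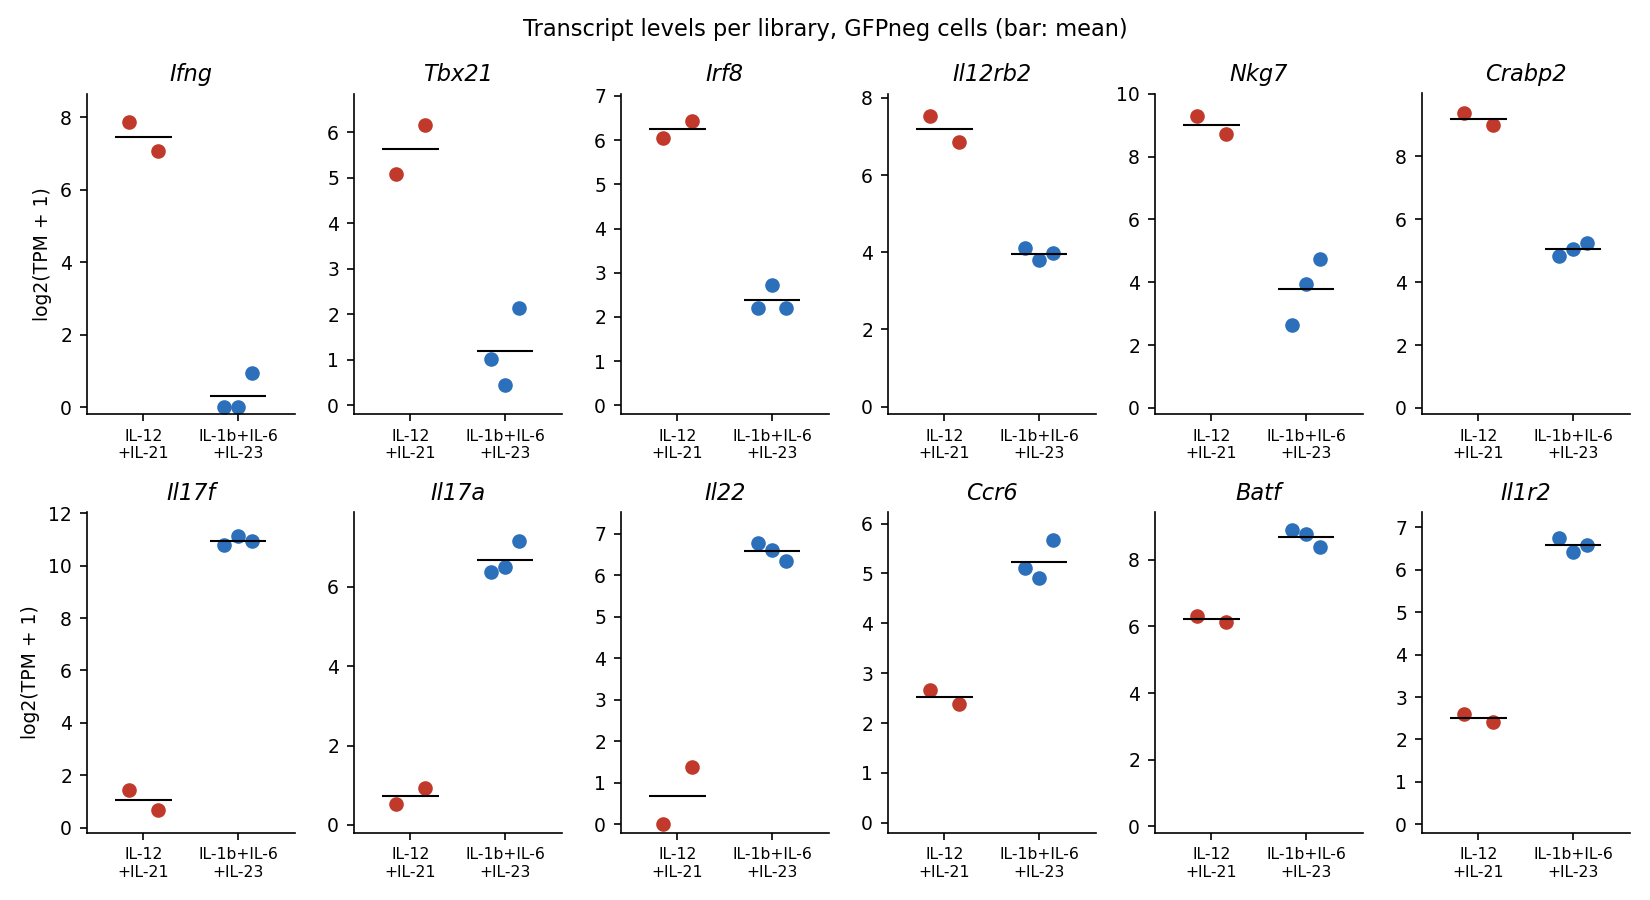
Level of 12 genes as log2(TPM + 1) in each GFPneg library, with IL-12+IL-21 (2 libraries, red) left of IL-1b+IL-6+IL-23 (3 libraries, blue) and a bar at each group's mean. The upper 6 genes are higher in IL-12+IL-21 and the lower 6 are lower, and no pair of groups overlaps.

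Cytokine genes outside the Th1 and Th17 pair moved less. Il21, whose product was added to one culture and is made by Th17 cells, had 52.2 and 43.7 TPM in IL-12+IL-21, against 33.5, 24.6 and 43.9 TPM in IL-1b+IL-6+IL-23. The groups overlapped slightly and the change of 0.52 ± 0.27 did not pass (adjusted p = 0.546). Il2, the T cell growth factor, had 269.6 and 78.3 TPM against 712, 373 and 789 TPM, with a change of -2.02 ± 0.48 that missed the threshold (adjusted p = 0.0687). Il24 and Tnf did not pass either, at -0.78 ± 0.23 and 0.90 ± 0.25. Il10 had 0.75 and 0.78 TPM in IL-12+IL-21 and was listed at 0 in the other group, below the filter. Csf2, the gene of GM-CSF, was listed at 0 in all 5 libraries. Of 24 effector cytokine genes 16 were tested, with 1 higher, Ifng, and 4 lower. Besides Il17a, Il17f and Il22, the lower ones held Ebi3, a subunit of IL-27 and IL-35, with 14.5 and 12.2 TPM against 33, 27.9 and 31.5 TPM (adjusted p = 0.0366, and 0.316 without IL-12+IL-21 replicate 2).

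Transcription factors of T cell lineages went in both directions. Irf8, an interferon-regulated factor known from myeloid and Th1 biology, had 65.4 and 85.9 TPM in IL-12+IL-21, against 3.62, 5.6 and 3.58 TPM, a rise of 3.87 ± 0.28 (adjusted p = 0.000155). A pair of AP-1 family members that dimerise with Jun proteins, in complexes that bind DNA together with IRF4 or IRF8, moved in opposite directions. Batf had 78.1 and 69.7 TPM in IL-12+IL-21, against 478, 443 and 338 TPM, and fell by 2.48 ± 0.20 (adjusted p = 0.000299). Batf3 had 117 and 135 TPM against 36, 32.2 and 29.8 TPM, and rose by 1.91 ± 0.21 (adjusted p = 0.0016, and 0.0571 without IL-12+IL-21 replicate 2). Irf4, which acts with them after T cell receptor stimulation, had 47.2 and 36.1 TPM against 13.7, 13 and 15.5 TPM, and rose by 1.49 ± 0.24 (adjusted p = 0.0124, and 0.209 without replicate 1).

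Both inhibitors of E proteins measured here were lower. Id2 had 84.8 and 71 TPM in IL-12+IL-21, against 231, 268 and 228 TPM, a change of -1.63 ± 0.19 (adjusted p = 0.00226, and 0.0571 without IL-12+IL-21 replicate 2). Id3 had 44.2 and 44.6 TPM against 236, 190 and 131 TPM, a change of -2.0 ± 0.26 (adjusted p = 0.00362, and 0.0902 without replicate 1). Rora, an orphan nuclear receptor, had 3.33 and 2.96 TPM against 9.83, 9.57 and 13.2 TPM (adjusted p = 0.0242, and 0.246 without replicate 2). Tcf7, the gene of the stemness factor TCF-1, had 28.2 and 22.4 TPM against 89.2, 57.2 and 74.4 TPM, a change of -1.49 ± 0.25 (adjusted p = 0.0143, and 0.211 without replicate 2). In the list of 31 lineage factors, 21 were tested, 4 were higher and 5 lower, and the median was 0.05. Gata3 and Foxp3, the factors of Th2 and regulatory T cells, stayed under 8 and 1.5 TPM and did not pass, and Maf and Ahr lay below the filter.

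**Figure D2:**
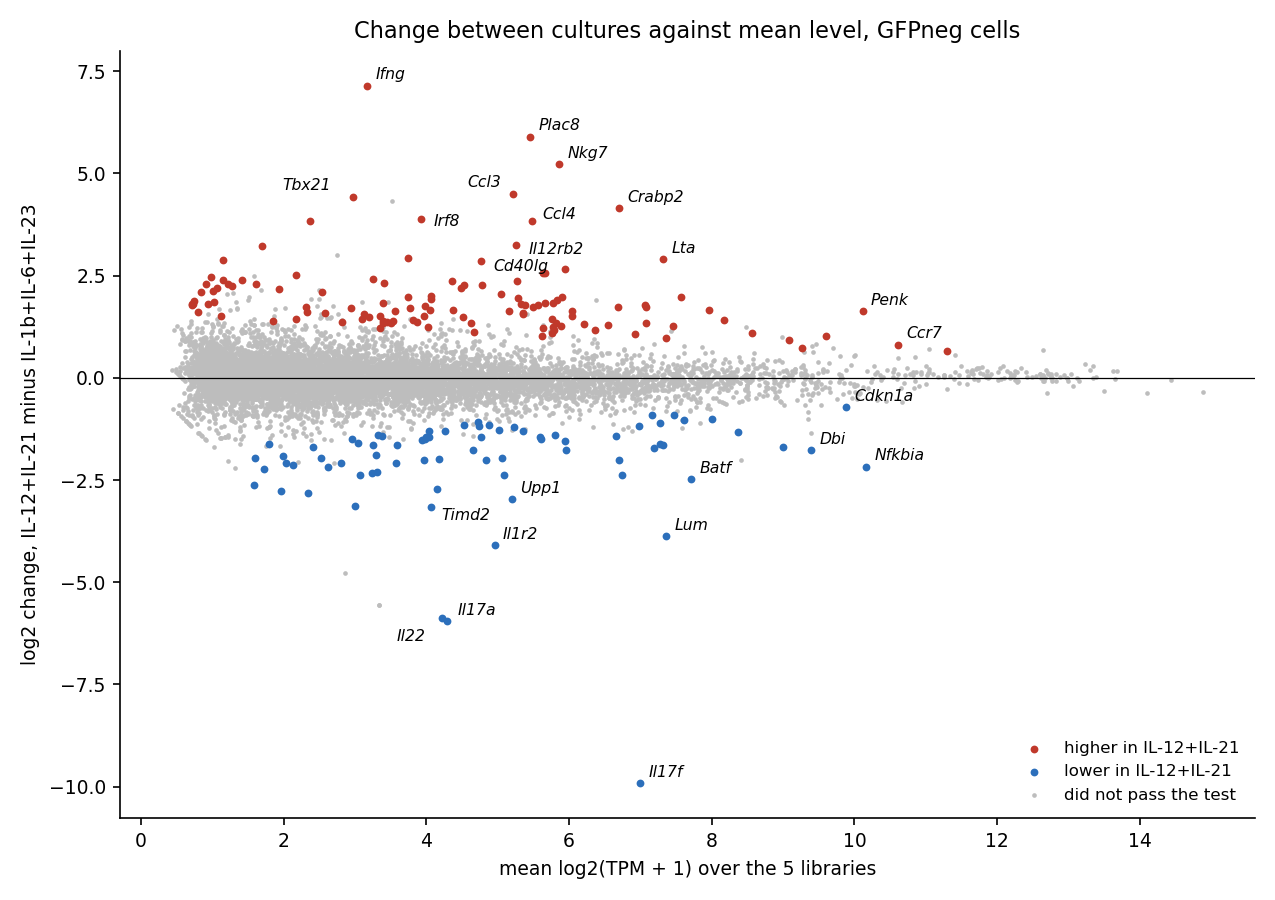
Log2 change between the cultures (IL-12+IL-21 minus IL-1b+IL-6+IL-23) against the mean log2(TPM + 1) over the 5 GFPneg libraries for 8757 genes, with the 122 higher genes in red, the 76 lower in blue and the rest in grey. Il17f lies alone at -9.91, Ifng tops the rises at 7.14, and Penk and Nfkbia stand out among highly expressed genes.

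Receptors for cytokines rose in part. Of 23 listed, 19 were tested, 4 were higher and 0 lower, around a median of -0.01. Besides Il12rb2, these were Ifngr1, the ligand-binding chain for interferon gamma, Il10ra, the chain that binds IL-10, and Il2rb, which transmits IL-2 and IL-15 signals. Ifngr1 had 32.9 and 39.9 TPM in IL-12+IL-21, against 7.15, 7.36 and 13 TPM, a rise of 1.92 ± 0.30 (adjusted p = 0.0109). Il2rb had 179 and 141 TPM against 76.4, 59 and 59.2 TPM, a rise of 1.29 ± 0.22 (adjusted p = 0.0143). Il10ra had 4.16 and 3.52 TPM against 0, 0 and 0.39 TPM. Without IL-12+IL-21 replicate 1 the adjusted p reached 0.234 for Il2rb and 0.176 for Il10ra, and without replicate 2 it reached 0.204 for Ifngr1. Il21r, the receptor of the added IL-21, had 331 and 199 TPM against 375, 288 and 258 TPM and did not pass (adjusted p = 0.842).

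Of 14 genes of the IL-1 receptor family 8 were tested, 1 was higher and 2 were lower. Il1r2, a decoy that binds IL-1 without signalling, had 5.08 and 4.29 TPM in IL-12+IL-21, against 106, 85.2 and 95.6 TPM, a change of -4.09 ± 0.23 (adjusted p = 1.85e-05). Il1rn, which encodes the secreted antagonist of the IL-1 receptor, had 0 and 0.52 TPM against 7.15, 7.11 and 7.84 TPM, a change of -2.76 ± 0.31 (adjusted p = 0.00202, and 0.053 without IL-12+IL-21 replicate 1). Both genes that blunt IL-1 were thus higher in the culture that contained IL-1b. The signalling receptor Il1r1 had 0.18 and 0.06 TPM against 1.06, 1.4 and 0.95 TPM and did not pass (adjusted p = 0.247). Il18r1, the receptor for IL-18, had 13.2 and 8.48 TPM against 2.47, 3.02 and 3.15 TPM, a rise of 1.59 ± 0.30 (adjusted p = 0.0278, and 0.354 without replicate 1). That call passed in 1 of the 5 fits with a library left out, the one without IL-1b+IL-6+IL-23 replicate 1.

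In a single chemokine cluster on chromosome 11, Ccl3 and Ccl4 were higher, while Ccl5 was lower by a less stable call. Ccl3 had 348 and 168 TPM in IL-12+IL-21, against 5.43, 8.6 and 18.8 TPM, a rise of 4.51 ± 0.46 (adjusted p = 0.00113, and 0.053 without IL-12+IL-21 replicate 1). Ccl4 had 298 and 161 TPM against 8.71, 15.6 and 21.4 TPM, a rise of 3.84 ± 0.38 (adjusted p = 0.000963). Ccl5, the chemokine RANTES, had 61.8 and 92.7 TPM against 180.4, 167 and 175 TPM, a change of -1.19 ± 0.22 (adjusted p = 0.0225, and 0.235 without replicate 1). Its call was also lost without IL-1b+IL-6+IL-23 replicate 2 or 3 (adjusted p = 0.0622 and 0.0798). In GFPpos cells the change of Ccl5 was -0.42 and did not pass (adjusted p = 0.477). Ccl5 lies 117.3 kb from Ccl3 (Ccl5 at chr11:83525778-83530518 and Ccl3 at chr11:83647844-83649355, both on the minus strand of GRCm38). Cxcl10, an interferon-induced ligand of CXCR3, had 25.4 and 23.3 TPM against 0.89, 0 and 2.02 TPM, a rise of 3.82 ± 0.44 (adjusted p = 0.00207, and 0.0812 without replicate 1). Ccr7, which guides T cells to lymph nodes, was abundant in both, at 2509 and 1892 TPM against 1377, 1104 and 1261 TPM (adjusted p = 0.0458, and 0.416 without replicate 1). Cxcr3 had 14.4 and 13.9 TPM against 28.9, 15.6 and 15.3 TPM and did not pass.

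Genes of cytotoxic granules and the serpins that protect against them were higher or did not pass. Of 20 listed, 10 were tested, 4 were higher and 0 lower, with a median of 1.04. Nkg7 had 619 and 420.4 TPM in IL-12+IL-21, against 5.23, 14.5 and 25.5 TPM, a rise of 5.22 ± 0.50 (adjusted p = 0.000884, and 0.0517 without IL-12+IL-21 replicate 1). Gzmb, the gene of granzyme B, had 47 and 18.2 TPM against 5.91, 6.95 and 7.48 TPM, a rise of 1.97 ± 0.37 (adjusted p = 0.0271, and 0.293 without replicate 1). Serpinb9, which inhibits granzyme B, had 62.5 and 55.1 TPM against 11.7, 9.94 and 12.4 TPM, a rise of 2.28 ± 0.23 (adjusted p = 0.00113). Serpinb6b, from the same serpin cluster on chromosome 13, had 101 and 95.5 TPM against 32.7, 25.7 and 26.3 TPM (adjusted p = 0.00277, and 0.0754 without replicate 1). Serpinb9 transcripts were thus more abundant than Gzmb transcripts in both cultures, per length, and no protein was measured. Gzma had 0 and 2.96 TPM against 1.18, 1.25 and 1.33 TPM and did not pass.

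Responses to interferon divided into a higher and a lower set. Guanylate-binding proteins and immunity-related GTPases, which attack vacuoles of intracellular pathogens and are classic targets of interferon gamma, leaned upward. Of 18 such genes and partners, 17 were tested, 15 had a positive change, 7 passed and 0 were lower (12 and 0 at an unadjusted p under 0.05), with a median of 1.45 and a range of -0.05 to 2.31. Irf1, a factor induced by interferons, had 75 and 78.7 TPM in IL-12+IL-21, against 21, 13 and 20.3 TPM, a rise of 2.06 ± 0.26 (adjusted p = 0.00358). Igtp had 553 and 443 TPM against 152, 136 and 182 TPM, a rise of 1.66 ± 0.20 (adjusted p = 0.00253). Gbp2 had 229.6 and 192 TPM against 69.8, 48.8 and 73.1 TPM, a rise of 1.72 ± 0.23 (adjusted p = 0.00443). Tgtp1, whose near copy Tgtp2 may share reads, had 40.9 and 34.2 TPM against 6.24, 9.27 and 11.1 TPM (adjusted p = 0.00656). Without IL-12+IL-21 replicate 1 the adjusted p was 0.0742 for Igtp, 0.116 for Gbp2 and 0.158 for Tgtp1, and without replicate 2 it was 0.0902 for Irf1.

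The genes best known from responses to type I interferon leaned the other way. Of 25 listed, 21 were tested, 20 had a negative change, 0 were higher and 6 lower, with a median of -0.77. Ifit1, which binds viral RNA, had 2.2 and 3.56 TPM in IL-12+IL-21, against 17, 16.3 and 20.3 TPM, a change of -2.30 ± 0.28 (adjusted p = 0.00279, and 0.0676 without IL-12+IL-21 replicate 1). Irf7, the factor that amplifies type I interferon, had 15.4 and 12.3 TPM against 64.7, 47.1 and 59.2 TPM, a change of -1.96 ± 0.24 (adjusted p = 0.00282, and 0.0738 without replicate 2). Ifit3, beside Ifit1 on chromosome 19, had 0.35 and 0.33 TPM against 3.14, 3.53 and 6.64 TPM (adjusted p = 0.022, and 0.252 without replicate 1). Oas1a, an antiviral synthetase, had 5.76 and 8.89 TPM against 26.4, 19.3 and 21.8 TPM (adjusted p = 0.0238, and 0.294 without replicate 1). Isg20 and Rtp4 also passed (adjusted p = 0.0483 and 0.0295, and 0.421 and 0.349 without replicate 1). Isg15, a ubiquitin-like modifier, had 78.1 and 90.2 TPM against 134, 117 and 177 TPM and did not pass (adjusted p = 0.172). At an unadjusted p under 0.05, 14 of the 21 were lower and 0 higher, and 4 passed under median-ratio scaling.

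Motif letters were counted for both interferon lists. The interferon-stimulated response element occurred in 9 of the 11 promoters found for tested genes of the GTPase list and in 8 of the 16 found for the type I list. The gamma-activated site occurred in 7 of the 11 and in 3 of the 16. Both printed promoters, that of Gbp2, which was higher, and that of Ifit1, which was lower, hold the interferon-stimulated response element, and that of Irf1 holds the gamma-activated site. These shares are a description, and the lists overlap in their biology. In the MHC class I list, 13 of 13 genes were tested and 2 were higher, the immunoproteasome subunit Psmb9 and the proteasome activator Psme1. Psmb9 had 242 and 251 TPM in IL-12+IL-21, against 123, 130.5 and 119.9 TPM (adjusted p = 0.0196, and 0.19 without IL-12+IL-21 replicate 2). Psme1 had 859 and 800.0 TPM against 547, 475 and 488 TPM (adjusted p = 0.0483, and 0.354 without replicate 1).

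**Figure D3:**
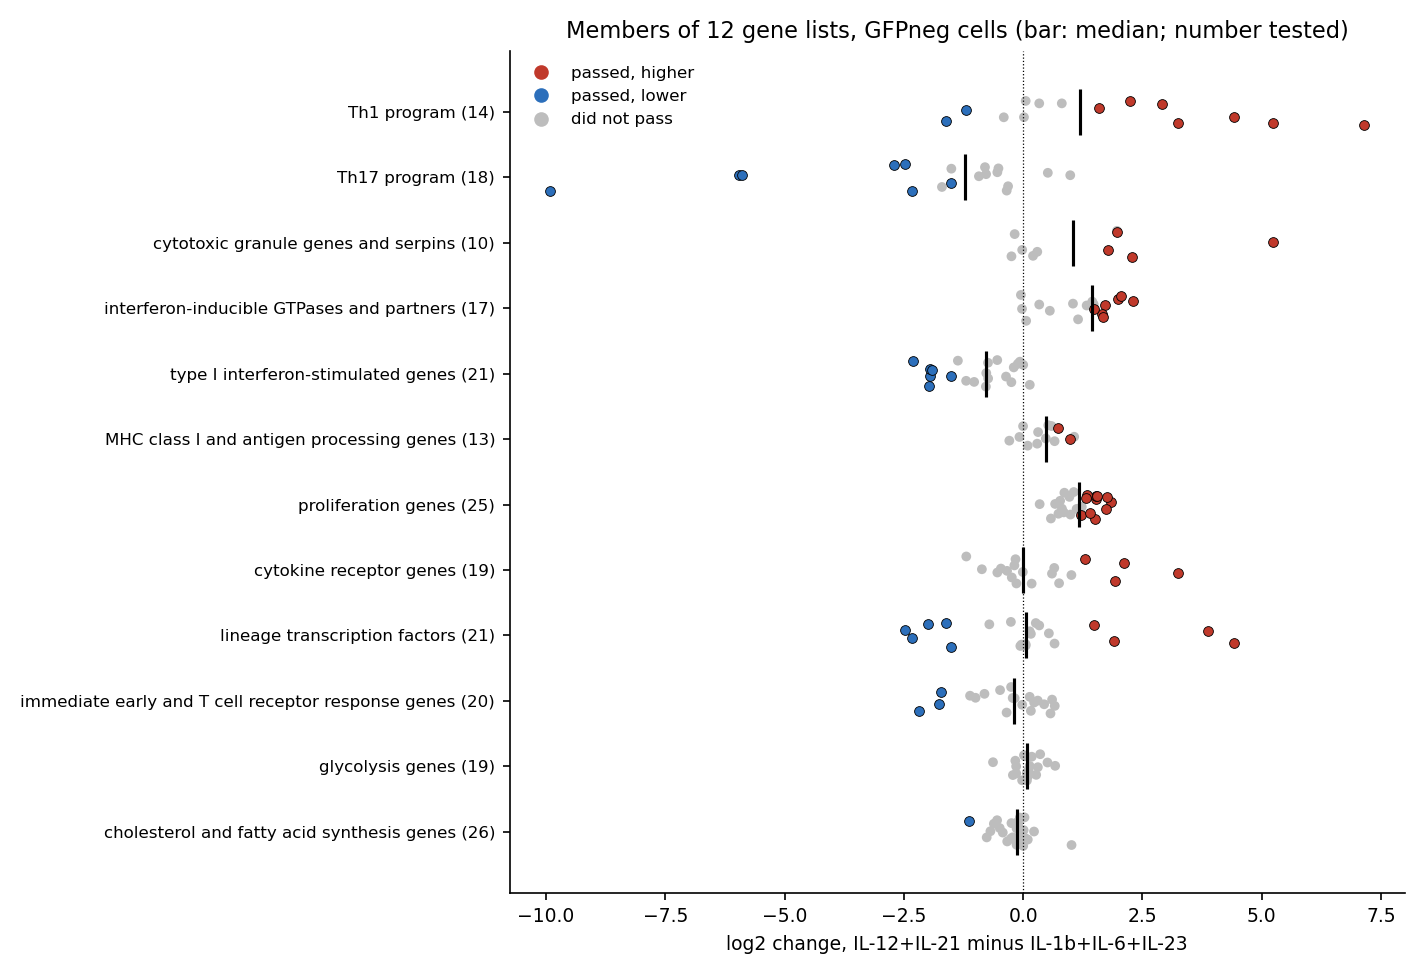
Log2 change (IL-12+IL-21 minus IL-1b+IL-6+IL-23) of each tested member of 12 gene lists in GFPneg cells, with the number tested in parentheses, a bar at the median, red for members that passed as higher, blue for lower and grey for the rest. All 25 proliferation genes lie above 0, the interferon-inducible GTPases have a median of 1.45, and 20 of 21 type I interferon-stimulated genes lie below 0.

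Genes of the cell cycle were all on one side. All 25 proliferation genes were tested, 25 had a positive change, 11 passed and 0 were lower (22 and 0 at an unadjusted p under 0.05), with a range of 0.35 to 1.83 and a median of 1.17. Top2a, which untangles DNA, had 24.4 and 19.1 TPM in IL-12+IL-21, against 5.57, 4.81 and 5.68 TPM, a rise of 1.83 ± 0.26 (adjusted p = 0.00655). Hmgb2, a chromatin protein of dividing cells, had 97.7 and 86.7 TPM against 26.6, 29.2 and 24.9 TPM, a rise of 1.74 ± 0.21 (adjusted p = 0.00277). Pcna, the replication clamp, had 112 and 134 TPM against 32.4, 49.5 and 46.4 TPM, a rise of 1.52 ± 0.24 (adjusted p = 0.0111). Rrm2, which supplies deoxynucleotides, had 138 and 117 TPM against 48, 58 and 45.2 TPM, a rise of 1.33 ± 0.21 (adjusted p = 0.0109). Without IL-12+IL-21 replicate 1 the adjusted p was 0.152 for Top2a, 0.0747 for Hmgb2 and 0.19 for Rrm2, and without replicate 2 it was 0.195 for Pcna. Ccna2, Ccnb1, Ccnb2, Cdk1, Aurkb, Plk1 and Tk1 made up the rest of the 11, and all 7 lost the call without either IL-12+IL-21 library (highest adjusted p 0.24 to 0.421). Cdk1 and Aurkb passed in 0 of the 5 fits with a library left out, and Ccna2, Ccnb2 and Tk1 also lost the call without IL-1b+IL-6+IL-23 replicate 3, as Ccna2 did without replicate 1 of that group. Mki67, the Ki-67 antigen of cycling cells, at 2.67 and 2.79 TPM against 0.81, 0.6 and 0.75 TPM, did not pass (adjusted p = 0.12). Cdkn1a, the cyclin-dependent kinase inhibitor p21, had 743 and 659 TPM against 1169, 1086 and 1213 TPM, a change of -0.72 ± 0.15 (adjusted p = 0.0393, and 0.318 without replicate 2).

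Ligands of the TNF family that passed were all higher. Lta, the gene of lymphotoxin alpha, had 556 and 512 TPM in IL-12+IL-21, against 66.9, 58.3 and 88.8 TPM, a rise of 2.91 ± 0.22 (adjusted p = 0.00018). Ltb, its membrane partner 6.8 kb away on chromosome 17, had 69.2 and 108 TPM against 18.8, 26 and 21.3 TPM, a rise of 1.94 ± 0.26 (adjusted p = 0.00482, and 0.105 without IL-12+IL-21 replicate 2). Cd40lg, which signals to B cells and dendritic cells, had 97.3 and 79.8 TPM against 9.14, 10.1 and 15.3 TPM, a rise of 2.86 ± 0.27 (adjusted p = 0.000869). Of 14 ligand genes, 11 were tested, 3 were higher, 0 were lower and the median was -0.17. In the 16 tested receptors and costimulatory genes, Tnfrsf9 (4-1BB), Tnfrsf18 (GITR) and Cd28 were higher and Tnfrsf25 (DR3) was lower. Without IL-12+IL-21 replicate 1, the adjusted p was 0.342 for Tnfrsf9 and 0.256 for Tnfrsf18. Cd28 had 138 and 98.5 TPM against 31.4, 25.5 and 40.6 TPM, a rise of 1.84 ± 0.26 (adjusted p = 0.00622, and 0.15 without replicate 1). Tnfrsf25 had 62.5 and 47.3 TPM against 185, 121 and 146 TPM, a change of -1.43 ± 0.24 (adjusted p = 0.0139, and 0.211 without replicate 2).

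Transcripts that follow receptor stimulation included 3 that fell and 0 that rose among 20 tested. Nfkbia, the NF-kappa B inhibitor that NF-kappa B itself induces, had 532 and 402 TPM in IL-12+IL-21, against 2362, 1803 and 2144 TPM, a change of -2.18 ± 0.18 (adjusted p = 0.000328). Psma6, a proteasome subunit gene 71 kb from Nfkbia on chromosome 12, had 259 and 244 TPM against 858, 699.7 and 896 TPM, a change of -1.69 ± 0.17 (adjusted p = 0.0011). Nr4a1, an orphan nuclear receptor, had 34.3 and 24.1 TPM against 105.6, 93.4 and 102 TPM (adjusted p = 0.00344). Cd69, an early activation antigen, had 78.5 and 62.8 TPM against 258, 185 and 267 TPM (adjusted p = 0.00395). Without IL-12+IL-21 replicate 2 the adjusted p of Nr4a1 was 0.0698 and that of Cd69 0.0917. In the JAK-STAT list, 21 of 22 were tested. Stat5a, which transmits IL-2 signals, was lower, with 102 and 61.4 TPM against 319, 222 and 223 TPM (adjusted p = 0.0109, and 0.165 without replicate 2), and the feedback inhibitor Socs2 was higher (adjusted p = 0.0321, and 0.298 without replicate 1).

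Several of the largest changes lay outside effector programs. Plac8, a small cysteine-rich protein of activated lymphocytes and myeloid cells, had 384 and 669 TPM in IL-12+IL-21, against 6.46, 6.81 and 9.64 TPM, a rise of 5.90 ± 0.29 (adjusted p = 1.44e-05). Crabp2, which carries retinoic acid to the nucleus, had 662 and 508 TPM against 27.5, 32 and 37 TPM, a rise of 4.14 ± 0.22 (adjusted p = 1.49e-05). Lum, the gene of the matrix proteoglycan lumican, had 35.3 and 28.8 TPM against 435, 457 and 551 TPM, a change of -3.86 ± 0.20 (adjusted p = 1.44e-05). Upp1, uridine phosphorylase, had 8.26 and 11.5 TPM against 86.4, 81.4 and 80.2 TPM, and Timd2, a receptor for ferritin in mice, 2.94 and 4.07 TPM against 37, 40 and 40.9 TPM. Their changes were -2.96 ± 0.23 and -3.17 ± 0.25 (adjusted p = 0.00022 and 0.000222). Slc15a3, a lysosomal peptide transporter, had 50.9 and 29.1 TPM against 242, 174 and 206 TPM, a change of -2.38 ± 0.26 (adjusted p = 0.00183).

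Ctla2a and Ctla2b, related inhibitors of cysteine proteases whose reads may be shared, rose together. Ctla2a had 149 and 229 TPM in IL-12+IL-21, against 33.6, 26.5 and 26.1 TPM, a rise of 2.65 ± 0.25 (adjusted p = 0.000791). Ctla2b had 10 and 12.8 TPM against 0, 1.32 and 0 TPM (adjusted p = 0.00395, and 0.115 without IL-12+IL-21 replicate 2). The Ly6 genes Ly6c1, Ly6c2 and Ly6i, close copies on chromosome 15, were likewise all higher. Without IL-12+IL-21 replicate 2 the adjusted p was 0.074 for Ly6c1 and 0.173 for Ly6i. Ly6c2 had 28.6 and 67.1 TPM against 7.77, 5.34 and 2.76 TPM (adjusted p = 0.00814, and 0.175 without replicate 2). Ubd, an interferon-induced ubiquitin-like modifier, had 5.08 and 7.8 TPM and was listed at 0 in all 3 IL-1b+IL-6+IL-23 libraries (adjusted p = 0.0019, and 0.0667 without replicate 2). Tff1, a trefoil peptide of mucosae, was listed at 0 in both IL-12+IL-21 libraries and had 2.85, 7.49 and 6.25 TPM in the others (adjusted p = 0.00758, and 0.146 without replicate 1). Lad1, a basement membrane protein, Crispld2, a secreted cysteine-rich protein, and Pdzk1ip1, a small membrane protein, fell by 3.13 ± 0.32, 2.83 ± 0.29 and 2.38 ± 0.22 on the log2 scale.

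Metabolic and stress genes gave few calls. In limma, 0 of 19 glycolysis, 12 heat shock and 17 amino acid transport and ATF4 response genes passed, their medians were 0.08, -0.10 and 0.04, and 2, 1 and 3 had an unadjusted p under 0.05. Of 26 cholesterol and fatty acid synthesis genes, 1 passed, Idi1, an isomerase of isoprenoid synthesis, which was lower (adjusted p = 0.0449, and 0.372 without IL-12+IL-21 replicate 2). In the hypoxia list of 15 tested, the oxygen-sensing hydroxylase Egln3 was higher and the stress-response gene Ndrg1 lower (adjusted p 0.314 and 0.139 without replicate 2). The metallothionein gene Mt3 was the 1 of 9 tested in its list that passed, and was higher (adjusted p 0.349 without replicate 1). In limma, 0 of 10 co-inhibitory receptors and ectonucleotidases, 7 follicular helper, 4 natural killer receptor and 3 Th2 genes passed, and 2, 1, 4 and 1 had an unadjusted p under 0.05. The 4 natural killer receptor genes were all higher in IL-12+IL-21, with a median log2 change of 1.045, and 2 passed as higher in GFPpos cells. Tnfrsf18 was the 1 regulatory T cell gene of 9 that passed, while 2 were higher and 2 lower at an unadjusted p under 0.05. Furin, a protease that matures TGF-beta, was the 1 of 12 in the TGF-beta list that passed. It was higher (adjusted p = 0.0127), and 2 of that list were higher and 0 lower at an unadjusted p under 0.05. The call of Furin was lost without IL-12+IL-21 replicate 1. In the naive and stem-like list, Ccr7 was higher, while Tcf7 and Id3 were lower.

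Lists named for pathogenic and non-pathogenic Th17 cells held genes of both programs. Of the 14 pathogenic signature genes tested, Ccl3, Ccl4, Gzmb, Tbx21 and Batf3 were higher, and Ccl5 and Il22 were lower. Of the 4 non-pathogenic signature genes tested, Il17a, Il17f and Il1rn were lower and 0 were higher.

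The same contrast was available in reporter-positive (GFPpos) cells, 3 libraries per culture, none of them shared with the GFPneg contrast. There, 438 of the 8757 genes passed (5%), 314 higher (3.59%) and 124 lower (1.42%) in IL-12+IL-21. Of the 122 genes higher in GFPneg cells 98 were also higher in GFPpos cells, and of the 76 lower 58 were also lower. In sign, 194 of the 198 matched, the exceptions being Phlda3, Ebi3, Aunip and Trav9d-3. The share of matching signs over all genes tested was not counted. Ifng had 450.3, 233 and 299.7 TPM in GFPpos IL-12+IL-21, against 0, 0.3 and 0 TPM in GFPpos IL-1b+IL-6+IL-23. Il17f had 5.44, 3.24 and 6.19 TPM in GFPpos IL-12+IL-21, against 6082, 9475 and 9681 TPM. The changes there were 8.18 and -10.47.

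Whether the culture difference itself depended on the reporter was tested as an interaction in limma over the 11 libraries. At an adjusted p under 0.05, 0 genes passed. An unadjusted p under 0.05 was reached by 444 of 8757, about as many as that threshold gives with no difference. Among the 198 called genes 52 reached it, but these were selected on the GFPneg change, which enters the difference. The smallest adjusted p was 0.523. Il17a had the smallest unadjusted p, 0.000121. It had 0.46, 0.54 and 2.47 TPM in GFPpos IL-12+IL-21, against 615, 697 and 1199 TPM in GFPpos IL-1b+IL-6+IL-23, so its change was -8.66 there and -5.96 in GFPneg cells. Penk was picked after its values were seen, and other genes had a smaller unadjusted p, among them Aunip, Il24, Crabp2 and Tnfrsf18. In GFPpos cells Penk had 3437, 2338 and 4460.3 TPM against 394, 231 and 369.9 TPM. Its change was 3.35 there and 1.64 in GFPneg cells (unadjusted p for the difference 0.000992).

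**Figure D4:**
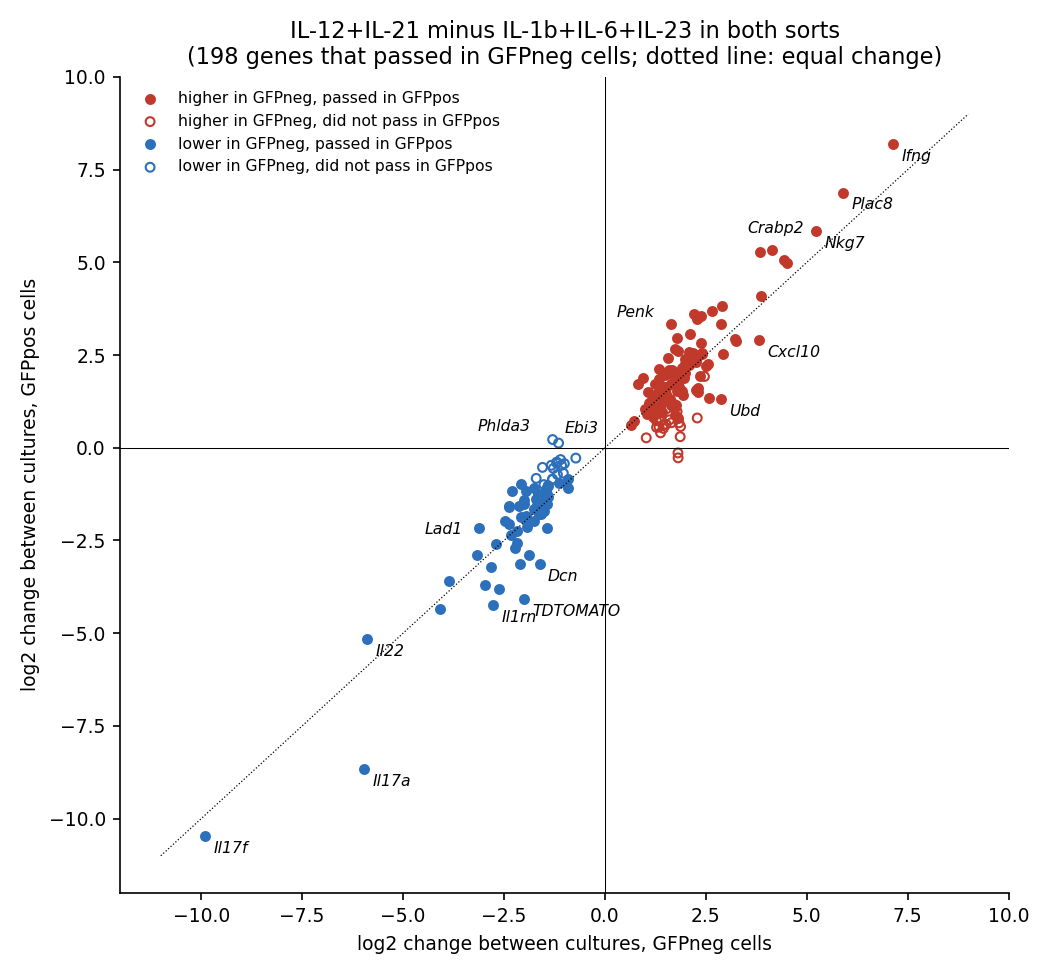
Log2 change between cultures (IL-12+IL-21 minus IL-1b+IL-6+IL-23) in GFPneg cells (x axis) and in GFPpos cells (y axis) for the 198 genes that passed in GFPneg cells, filled where they also passed in GFPpos cells, with a dotted line of equal change. Most points lie near the line, Il17a lies below it at -5.96 and -8.66, and Phlda3 and Ebi3 lie above 0 in GFPpos cells.

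Reporter-negative cells of the remaining cultures put these levels in context, as values without a test and from the libraries that listed at least 10000 genes. With IL-12 alone (2 libraries), Ifng had 1121 and 1474 TPM and Gzmb 290.4 and 509 TPM, both above the 2 IL-12+IL-21 libraries compared here. Crabp2 with IL-12 alone had 607 and 524 TPM, within reach of the 662 and 508 TPM of IL-12+IL-21. With TGFb+IL-6 (2 libraries), Il17f had 4744 and 3552 TPM, above the IL-1b+IL-6+IL-23 libraries, while Il22 had 0 and 0.94 TPM and Il1r2 5.89 and 6.93 TPM. Il1rn had 7.59 and 7.15 TPM with TGFb+IL-6, beside 7.15, 7.11 and 7.84 TPM with IL-1b+IL-6+IL-23. Lum had 1.2 and 2.45 TPM with TGFb+IL-6 and 5.42 and 3.09 TPM with IL-12 alone, all below its 435 to 551 TPM in the IL-1b+IL-6+IL-23 culture. Batf had 59.2 and 65.5 TPM with TGFb+IL-6 and 151 and 142 TPM with IL-12 alone, below the 338 to 478 TPM of IL-1b+IL-6+IL-23. Lta was higher with TGFb+IL-6, at 1153 and 1159 TPM, than in either culture compared here.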

How the data were processed

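RNA of sorted mouse CD4 T cells was sequenced after SMART-Seq2. The authors deposited a table of TPM values per gene. The build was GRCm38 and the tools were RSEM 1.2.31, Bowtie2 2.2.9 and Trimmomatic 0.32, per the submitters' processing notes. The sources used here name no settings and do not say whether strand was used. TPM divides out depth, so no counting interval can be given, and near-identical genes may share reads. Samples were grouped by label.

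From the table, genes with at least 1 TPM in at least 2 of the 5 libraries were kept, a pseudocount of 1 was added, and log2 values were fitted by group with limma 3.58.1 (trended empirical Bayes, R 4.3.3) and adjusted by Benjamini-Hochberg. The difference between sorts was an interaction over 11 libraries. Figures and tables used Python 3.11.15, pandas 2.3.3, numpy 2.4.6 and matplotlib 3.10.9.

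Genes were named by rule as the 15 with the largest change in each direction, among genes past an adjusted p of 0.05, an absolute log2 change of 1 no overlap between the groups and 5 TPM in the higher group's mean, predicted genes and receptor segments left out, then up to 4 passing members of each gene list with the smallest adjusted p, and a set of 16 effector and lineage genes. Members and lists were chosen with earlier results of these data known. Other genes named were picked after their values were seen. Gene positions are from GENCODE M21, and promoters from RefSeq in GRCm38.p6, where 62 of 83 named genes matched. Alternatives were pseudocounts of 0.1 and 5, other filters and scalings, other library sets, a replicate block and leaving out each library. Other cultures were not tested here. Some items are not reported here.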

Additional observations from a re-analysis of the deposited data

Results flagged for a closer look

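The IL-12+IL-21 GFPneg library left out, replicate 3, was searched for the 15 higher and 15 lower genes named first. It listed 1331 genes above 0. Of the 15 higher genes, 9 had a level above all 3 IL-1b+IL-6+IL-23 libraries there, as did 990 of all 8757 genes tested (11.3%). This library entered no comparison above other than the fits that state its inclusion. Ifng had 1369 TPM, Plac8 2714 TPM, Ccl3 329 TPM, Ccl4 416 TPM and Tbx21 85.2 TPM. Crabp2 had 558 TPM, Irf8 228 TPM, Il12rb2 235 TPM and Lta 838 TPM. The other 6, among them Nkg7 and Cd40lg, were listed at 0, and so were all 15 lower genes, Il17f and Lum included. Of all genes tested, 7451 (85.1%) were listed at 0 there, so these counts say little about the lower genes. Most tested genes above 0 there also exceeded all 3 IL-1b+IL-6+IL-23 libraries, so the 9 say little about the higher genes. Groups of 2 and 3 libraries are too small for a check on single outlying samples.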

How the results depend on the processing

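Against 198 genes called (122 higher, 76 lower), 158 to 231 passed under pseudocounts of 0.1 and 5, a filter of 5 TPM, quantile or median-ratio scaling and array weights. Without a filter 129 passed (44 lower), and without the trend 50 of 136 were lower. With replicate 3 of IL-12+IL-21 GFPneg added, 6 passed (4 higher, 2 lower) and the median change of all genes became -0.73. With all 21 libraries 17 passed (6 higher, 11 lower), and with the 16 of good quality 350 (216 higher, 134 lower). Both fits with replicate 3 reversed 24 of the 198 calls. Among named genes they reversed Cd28 (-0.46), Batf3 (-0.41), Serpinb6b (-0.44), Irf1 (-0.038), Tnfrsf9 (-0.87), Pcna (-0.80) and Il21 (-1.35). Gata3 became 0.013 without IL-1b+IL-6+IL-23 replicate 1. With 1 library left out, 37 to 197 genes passed, 20 to 121 higher and 17 to 76 lower. A replicate block gave 494 calls (269 higher, 225 lower) over 5 libraries and 395 (253 higher, 142 lower) over 16. The labels state no pairing, 2 numbers are shared, and the replicate 1 minus replicate 2 differences correlated at 0.22. For the difference between sorts, 1 gene passed at a pseudocount of 5 (Il17a), 2 under the replicate block (Il17a and Penk) and 0 to 2 with 1 library left out, against 0. Median-ratio and quantile scaling kept the sign of the medians given for the Th1, Th17, interferon, proliferation and cytotoxic lists. The causes of these shifts were not tested. A group of 2 libraries and unknown depth limit every value.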

Other observations

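Some of the 198 called genes lie close together. Of the 196 with a position in GENCODE M21, 40 formed 23 neighbouring pairs within 150 kb, and 21 pairs had the same direction. Dcn and Lum, neighbouring matrix proteoglycan genes 47 kb apart, were both lower, and Dcn had 1.03 and 0.54 TPM in IL-12+IL-21, against 4.46, 4.46 and 4.34 TPM in IL-1b+IL-6+IL-23 (adjusted p = 0.0242, and 0.269 without IL-12+IL-21 replicate 2). Gimap4 and Gimap7, GTPases of lymphocyte survival 26.6 kb apart, were both higher (adjusted p 0.162 for Gimap4 without IL-12+IL-21 replicate 1 and 0.105 for Gimap7 without replicate 2). The 2 pairs of opposite direction were Ccl5 with Ccl3 and Ccl5 with Ccl4, so both rest on the less stable Ccl5 call. Several pairs are near copies that may share reads, and no test was made of how often neighbours would be called together.

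Some genes outside the lists were picked after their values were seen. Penk, the enkephalin precursor, was among the most abundant genes called, with 2751 and 1742 TPM in IL-12+IL-21, against 965, 528 and 682 TPM in IL-1b+IL-6+IL-23 (log2 change 1.64 ± 0.27, adjusted p = 0.0128, and 0.256 without IL-12+IL-21 replicate 1). Dhrs3, which reduces retinaldehyde and is itself induced by retinoic acid, had 2.89 and 1.51 TPM against 20, 10 and 17.6 TPM (adjusted p = 0.00831, and 0.165 without replicate 2), opposite in direction to Crabp2. Dbi, a carrier of acyl-CoA, had 299 and 344 TPM against 1065, 950.3 and 1294 TPM (adjusted p = 0.0011). A row named TDTOMATO, whose meaning is not given in the sources used here, had 5.73 and 5.86 TPM against 28.6, 26.1 and 24.7 TPM (adjusted p = 0.00253, and 0.0571 without replicate 2).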
